A study of Mus musculus with 38 samples.

Results

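The genes described are 26 of the 21441 genes in the deposited expression tables: the enzymes that build cholesterol from acetyl units, the SREBP transcription factors that switch these enzymes on, the proteins that hold SREBP in check, and a cytosolic sterol carrier. They were taken by symbol, with Msmo1 listed under its older symbol Sc4mol, without a cutoff on a measured value. The list was nevertheless drawn up with earlier results of these data known. By role they comprise 8 genes of the mevalonate and isoprenoid steps, 12 of the squalene and sterol steps, 5 of SREBP control (Srebf1, Srebf2, Scap, Insig1 and Insig2) and the carrier gene Stard4. RNA-seq was made from wild-type C57BL6/J mice, all vitamin D deficient, that received 10 ng of 1,25(OH)2D3 per g of body weight into the peritoneum and were killed 4 h later, or received 0.1 ml of the vehicle alone, a mixture of ethanol and propylene glycol. The treated groups comprised 7 libraries of villi, 6 of crypts and 7 of colon, and the vehicle groups 6 libraries of each. Villi and crypts came from proximal small intestine by EDTA release and a 70 µm filter, and colon epithelium was scraped from the muscle. The labels give an age of 10 to 13.3 weeks in a field of their own and of 12 to 14 weeks at injection, and call the animals pooled males and females. How many mice make up a library was not given. The p-values therefore measure only how libraries of a group differ, and part of that spread may be technical.

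Cholesterol synthesis is governed by feedback. When membrane sterol is low, SCAP escorts the SREBP precursors to the Golgi, where proteases free the active transcription factor; when sterol is high, the INSIG proteins retain SCAP and SREBP in the endoplasmic reticulum. SREBP-2, from Srebf2, mainly drives sterol synthesis and uptake, and SREBP-1, from Srebf1, mainly fatty acid synthesis. Insig1 is itself an SREBP target, whereas Insig2 is not controlled in that way in liver. 7-Dehydrocholesterol, which DHCR7 turns into cholesterol, is also the precursor from which skin makes vitamin D. The intestinal epithelium both makes cholesterol and takes it up from the diet.

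Promoter sequences are given for the genes on which the results turn: Hmgcs1 as the gene with the sterol response element, the 2 INSIG genes, and Dhcr7. RefSeq (GRCm38.p6) had 30 start sites for 22 of the 26 genes, each as a window of 250 bases before to 50 after the start, 5′ to 3′ on the gene's strand. Capitals mark matches on either strand to the SREBP element TCACNCCAC, the NF-Y box CCAAT, the Sp1 box GGGCGG and the E-box CACGTG.
Hmgcs1, chr13:119690101-119690400, plus strand: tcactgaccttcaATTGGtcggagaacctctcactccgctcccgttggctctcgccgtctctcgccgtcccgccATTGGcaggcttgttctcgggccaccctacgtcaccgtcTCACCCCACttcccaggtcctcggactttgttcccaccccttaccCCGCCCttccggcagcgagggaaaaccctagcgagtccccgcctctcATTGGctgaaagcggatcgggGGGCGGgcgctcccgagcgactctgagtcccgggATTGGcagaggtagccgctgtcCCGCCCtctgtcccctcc
Insig1, chr5:28071162-28071461, plus strand: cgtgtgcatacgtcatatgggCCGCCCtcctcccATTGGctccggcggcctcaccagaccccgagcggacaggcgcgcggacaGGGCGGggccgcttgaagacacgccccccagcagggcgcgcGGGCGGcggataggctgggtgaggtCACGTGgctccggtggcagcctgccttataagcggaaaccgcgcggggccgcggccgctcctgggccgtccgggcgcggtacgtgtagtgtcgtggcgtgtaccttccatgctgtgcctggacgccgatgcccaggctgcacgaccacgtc
Insig2, start farthest upstream, chr1:121332540-121332839, minus strand: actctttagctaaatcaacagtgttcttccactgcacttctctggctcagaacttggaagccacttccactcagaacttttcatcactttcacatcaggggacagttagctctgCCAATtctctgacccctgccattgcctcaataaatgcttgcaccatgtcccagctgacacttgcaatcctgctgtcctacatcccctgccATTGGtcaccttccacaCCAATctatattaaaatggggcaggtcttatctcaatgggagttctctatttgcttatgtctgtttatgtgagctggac
Insig2, middle start, chr1:121327975-121328274, minus strand: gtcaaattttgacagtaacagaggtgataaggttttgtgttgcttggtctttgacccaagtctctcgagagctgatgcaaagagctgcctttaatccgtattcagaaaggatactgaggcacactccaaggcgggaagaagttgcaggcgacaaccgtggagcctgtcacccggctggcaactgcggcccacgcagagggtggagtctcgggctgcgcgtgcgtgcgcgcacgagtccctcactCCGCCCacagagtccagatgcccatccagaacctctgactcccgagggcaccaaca
Dhcr7, chr7:143829964-143830263, plus strand: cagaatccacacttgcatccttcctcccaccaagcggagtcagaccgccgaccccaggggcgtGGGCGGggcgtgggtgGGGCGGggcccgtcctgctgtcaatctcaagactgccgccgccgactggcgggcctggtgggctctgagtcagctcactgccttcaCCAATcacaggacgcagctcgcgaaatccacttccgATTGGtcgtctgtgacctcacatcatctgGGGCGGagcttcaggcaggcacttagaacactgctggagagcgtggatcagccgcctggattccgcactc
Insig2 and Dhcr7 have 3 windows each in this table. The Insig2 window not printed starts further downstream and holds 1 GGGCGG and no CCAAT. For Dhcr7 the window with the most matches is printed; the other 2 hold no CCAAT, and 1 of them has 1 GGGCGG and the other 1 CACGTG. The element TCACNCCAC was found in 1 of the 30 windows, that of Hmgcs1, and in 1.24% of all 32851 mouse windows. CCAAT was found in 21 of 30, covering 20 of the 22 genes, against 37.4% of all windows, and GGGCGG in 24 of 30 against 35.7%. CACGTG was in 6 of 30 windows against 7.15% of all. The DR3 vitamin D response element, a direct repeat of the receptor's recognition site, matched 0 of 30 windows and 0.256% of all windows. No measure of factor binding accompanies these windows, and a match is only a description of the letters.

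Each library held between 13.8 M and 17.5 M reads, as recovered from the steps between low values. Values are FPKM, fragments scaled by transcript length and library depth, so levels can be compared between genes; fold changes are differences of log2(FPKM + 0.5), vitamin D minus vehicle, with their standard error, and understate the change of low genes. Adjusted p-values are from limma over all genes tested in a tissue, unless the authors' deposited table is named. As a check of the treatment, Cyp24a1, the enzyme that inactivates the hormone, rose in every tissue (log2 fold change 10.53 in villi, 11.37 in crypts and 9.10 in colon). The receptor gene Vdr did not pass the test in any tissue (adjusted p = 0.675, 0.381 and 0.909). Summed levels of 11 absorptive enterocyte markers were 38252 to 64410 FPKM in villi, 6376 to 52434 in crypts and 413 to 3489 in colon; the 6 colonocyte markers summed to 5178 to 15798 FPKM in colon and to at most 312 elsewhere. The 7 stroma and muscle markers, among them Acta2, Myh11 and Des, summed to 1383 and 4154 FPKM in vitamin D colon libraries 1 and 2 and to between 10.5 and 248 in the other colon libraries, so the main colon results are also given without these 2 libraries. All 7 of these markers had a positive difference in colon (median 0.87, none passing the test by limma and 0 at an unadjusted p under 0.05). In bulk tissue, fewer cells of a type and less RNA per cell cannot be told apart.

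No gene of the 25 tested passed the test in villi, crypts or colon, whereas the threshold was passed upwards by 2.17%, 1.13% and 0.763% of all genes tested in the 3 tissues, and downwards by 0.299%, 0.335% and 0.0607%. At an unadjusted p under 0.05 there was 1 gene in villi (Insig2), 1 in crypts (Srebf2) and 6 in colon, against 12.2%, 15.3% and 8.05% of all genes tested. The remaining gene, Fdft1 (squalene synthase), was listed at 0 to 0.693 FPKM in every library and was not tested. Whether that listing is a low level or a failed estimate was not tested, so its values are given only as listed. The authors' deposited tables, made with another test, called Insig2 higher in villi and Insig2 and Dhcr7 higher in colon, and called none of the 26 in crypts; over all genes these tables called 2.89%, 2.40% and 1.37% higher and 0.711%, 1.88% and 0.273% lower in villi, crypts and colon. The largest positive differences were those of Insig2 in villi and of Insig2 and Dhcr7 in colon. In crypts the calls over all genes turned on 1 library: without vehicle crypts replicate 4, 613 genes passed upwards and 446 downwards, in place of 121 and 36, and the count among these 25 genes was still 0 in each direction.

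**Figure D1:**
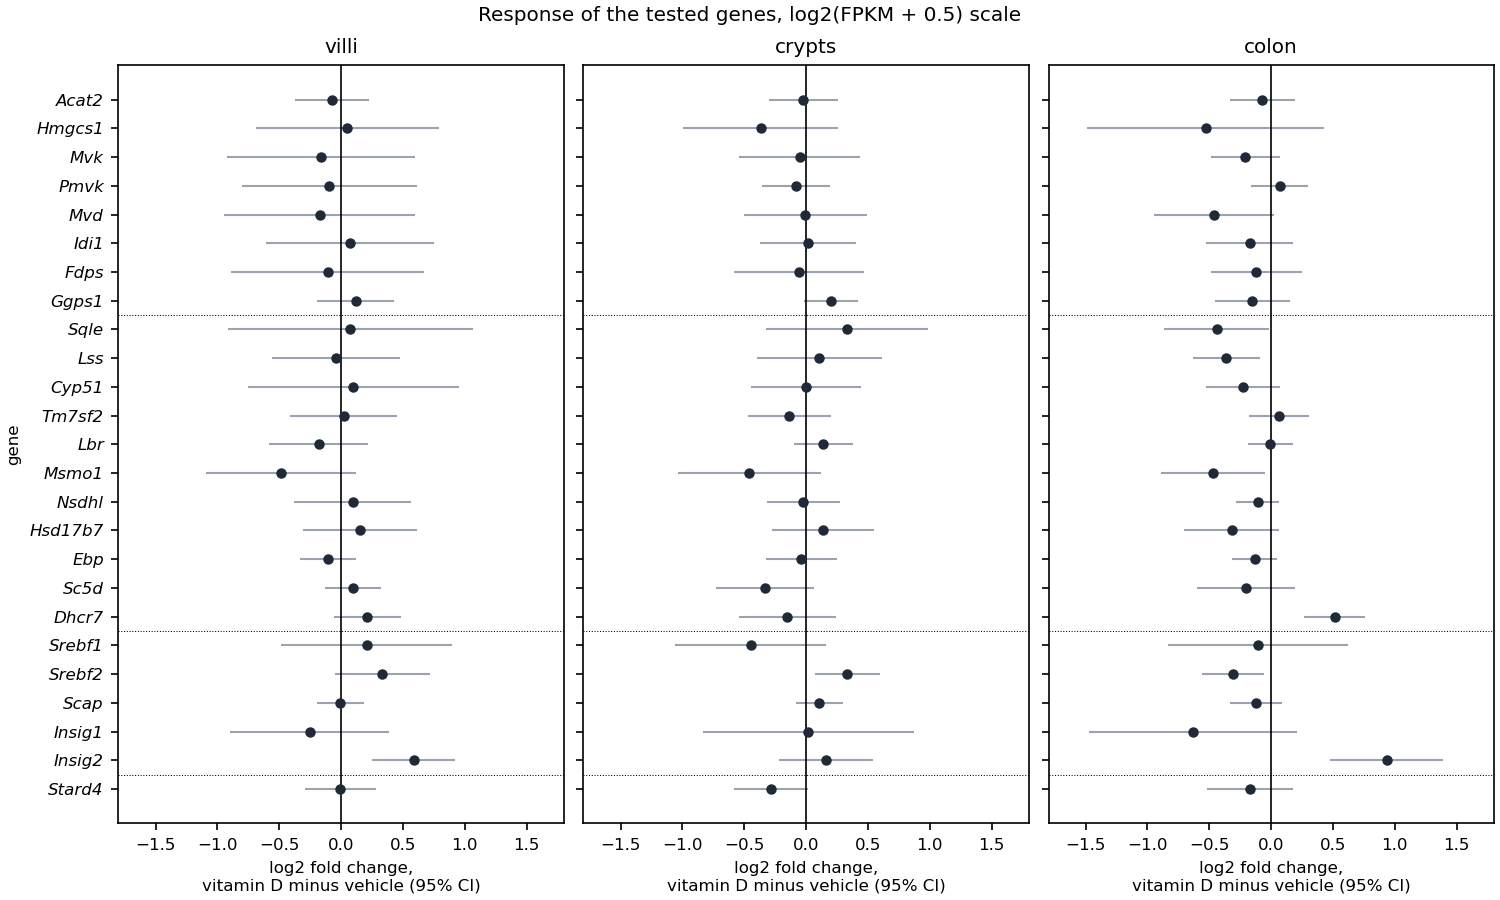
Log2 fold change, vitamin D minus vehicle, with its 95% confidence interval for the 25 tested genes (rows, by role) in villi, crypts and colon; dotted lines part the mevalonate, sterol, SREBP control and carrier genes. Insig2 in villi and colon and Dhcr7 in colon lie to the right of 0, and in colon 21 of 25 genes lie to the left.

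Insig2, whose product retains SCAP and SREBP in the endoplasmic reticulum, had the smallest p among these genes in villi. Vehicle villi ranged from 11.5 to 21.6 FPKM (median 13.8) and vitamin D villi from 16.2 to 29.0 (median 22.8). Of the 7 vitamin D libraries, 4 lay above every vehicle library, and the overlap came from vehicle replicate 5 alone, whose 21.6 FPKM stood well above the next vehicle value of 15.0. The log2 fold change was 0.59 ± 0.16 (95% interval 0.25 to 0.92, adjusted p = 0.0698), which missed the threshold. Blocked by replicate number, with vitamin D replicate 7 unpaired and adding nothing to the estimate, it was 0.58 and passed (adjusted p = 0.0320). That block follows the numbers of the sample titles; the table's column names number some villus libraries differently, and a block by those numbers pairs vehicle replicate 6 with vitamin D replicate 7 and gave 0.63 (adjusted p = 0.0213). It also passed without vehicle replicate 5 (0.70, adjusted p = 0.0163) or vitamin D replicate 3 (0.66, adjusted p = 0.0407). Among 23 alternatives 6 passed, and of the 13 that left out a single library 2 did. Adjusted p-values by limma ran from 0.0132 to 0.151, so most settings missed the threshold. The authors' deposited table gave 0.60 ± 0.17 with an adjusted p of 0.0186.

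In colon the same gene, Insig2, showed its widest separation. Vehicle colon ranged from 15.5 to 26.9 FPKM (median 19.5) and vitamin D colon from 25.4 to 77.5 (median 35.9). Vitamin D replicate 3, at 25.4 FPKM, was the library below the highest vehicle value, and the other 6 lay above all vehicle libraries. The difference was 0.94 ± 0.21 (interval 0.48 to 1.39, adjusted p = 0.0644). It passed in the authors' deposited table, at 1.01 ± 0.24 with an adjusted p of 0.00247. The highest value, 77.5 FPKM, belonged to vitamin D replicate 2, the library with the most muscle marker RNA. Without that library the difference was 0.77 and passed (adjusted p = 0.0265), without replicate 3 it was 1.03 (adjusted p = 0.0346), and without both muscle-rich libraries it was 0.75 (adjusted p = 0.0755). No more than 2 of 24 alternatives passed. Blocked by replicate number it missed, with a limma adjusted p of 0.109 by titles and 0.214 by column names. In crypts Insig2 lay between 9.48 and 18.8 FPKM with vehicle and between 10.9 and 20.5 with vitamin D, a difference of 0.16 ± 0.18 (interval -0.22 to 0.54, adjusted p = 0.701). The response in crypts minus that in colon was -0.78 (interval -1.33 to -0.22), and with an adjusted p of 0.801 over all genes it did not pass as a difference between tissues.

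Dhcr7, the reductase that converts 7-dehydrocholesterol to cholesterol, was the gene of the 25 whose groups did not overlap in any tissue, and this was in colon. There it ranged from 45.7 to 61.7 FPKM with vehicle (median 58.2) and from 63.6 to 95.8 with vitamin D (median 80.5), so that 7 of 7 treated libraries lay above every vehicle library, a separation found upwards in 0.754% of all genes tested in colon, 1.75% in villi and 1.23% in crypts. The log2 fold change was 0.51 ± 0.12 (interval 0.26 to 0.76), with an adjusted p of 0.0635. The authors' deposited table called it, at 0.52 ± 0.12 and an adjusted p of 0.00215. It passed with libraries rescaled by median ratios (0.52, adjusted p = 0.0469), without vitamin D replicate 2 (0.57, adjusted p = 0.0319) and without vitamin D replicate 7 (0.56, adjusted p = 0.0279); without both muscle-rich libraries it was 0.55 (adjusted p = 0.0876). Only 4 of 24 alternatives passed, and 2 of the 13 that left out a single library. Their adjusted p-values by limma ran from 0.0146 to 0.172. In villi Dhcr7 ranged from 17.3 to 29.3 FPKM with vehicle and from 22.7 to 32.4 with vitamin D (0.21 ± 0.13, adjusted p = 0.569). In crypts the ranges were 24.7 to 48.8 and 23.3 to 40.0 FPKM (-0.15 ± 0.18, adjusted p = 0.722). The response in crypts minus that in colon was -0.67 (interval -1.09 to -0.24, adjusted p = 0.514), which did not pass over all genes.

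**Figure D2:**
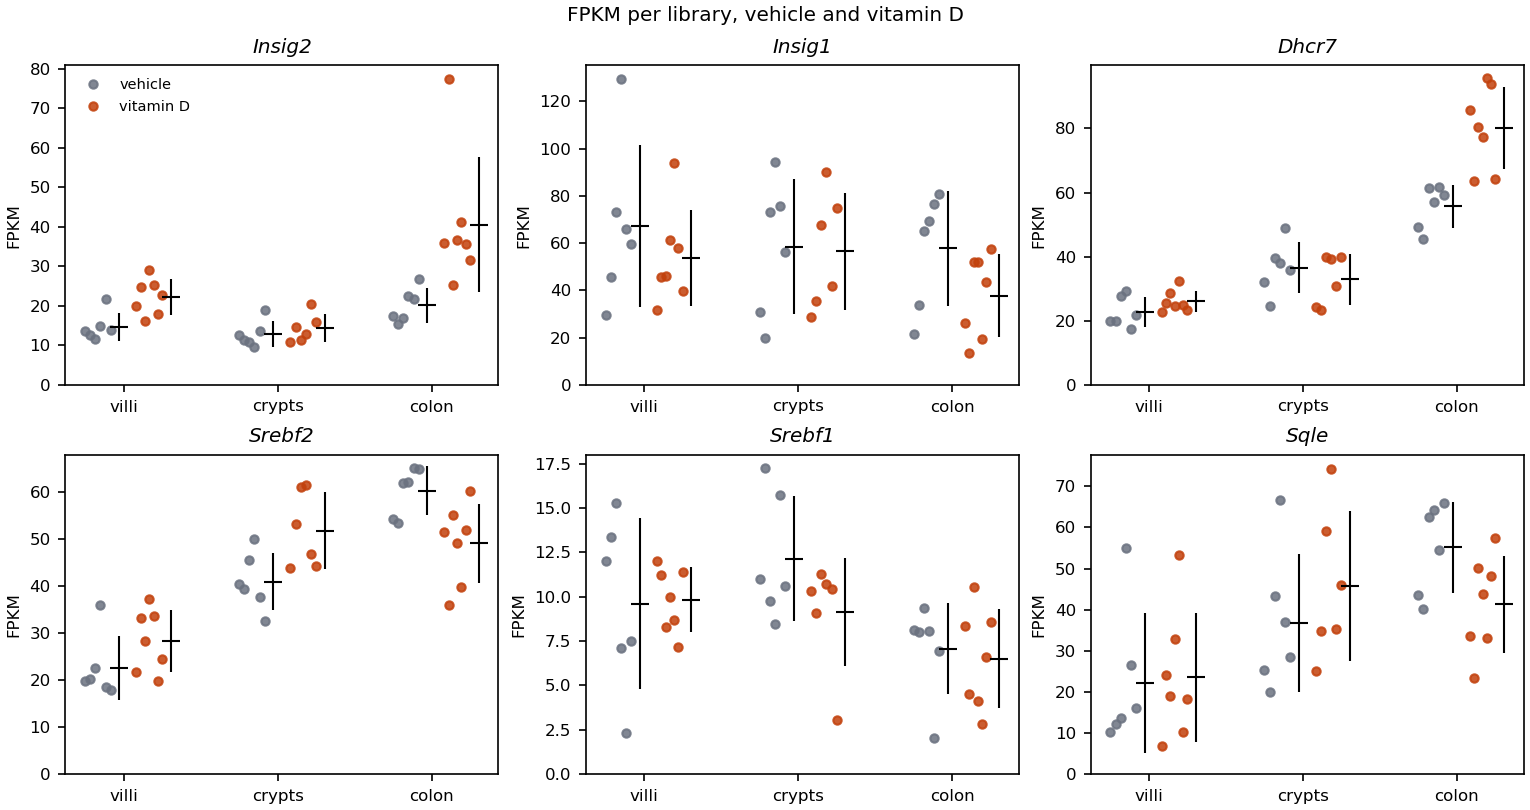
FPKM in every library for 6 genes by tissue and treatment, grey for vehicle and orange for vitamin D; black marks give the mean and SD of each group. Dhcr7 in colon is parted without overlap, Insig2 in colon overlaps through 1 library at 25.4 FPKM, and the mean of Srebf2 is above vehicle in villi and crypts and below it in colon.

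Srebf2, the gene for SREBP-2, had differences of opposite sign in small intestine and colon. In villi it ranged from 17.9 to 35.9 FPKM with vehicle (median 20.1) and from 19.7 to 37.2 with vitamin D (median 28.3), a difference of 0.33 ± 0.18 (adjusted p = 0.511). In crypts the medians were 39.8 and 50.0 FPKM, 3 of 6 vitamin D libraries lay above every vehicle library, and the difference was 0.33 ± 0.12 (adjusted p = 0.212). The crypt difference passed once blocked by replicate number (0.33, adjusted p = 0.0310). That fit called 249 of the 10733 genes tested in crypts higher, against 121 without the block. In colon the medians were 62.0 and 51.4 FPKM, 5 of 7 vitamin D libraries lay below every vehicle library, and the difference was -0.31 ± 0.11 (adjusted p = 0.412). The lowest colon value, 36.0 FPKM, was again that of vitamin D replicate 2; without both muscle-rich libraries the difference was -0.24. The villus response minus the colon response was 0.64 ± 0.21 (interval 0.22 to 1.06, adjusted p = 0.267). It passed without vehicle villi replicate 4, which had the highest vehicle level of Srebf2 in villi at 35.9 FPKM (0.78, adjusted p = 0.0445). Crypts minus colon was 0.64 (interval 0.21 to 1.07, adjusted p = 0.647). Of all genes tested in the 3 tissues, 0.494% differed in response between villi and colon, 0.0644% between crypts and colon and 0.0322% between villi and crypts, and none of the 25 did by limma, with 1, 3 and 0 of them at an unadjusted p under 0.05 in that order. Beside Srebf2, the smallest p for villi against colon was that of Hsd17b7 (0.47 ± 0.29, adjusted p = 0.650). Between villi and crypts the smallest were those of Sc5d (0.43 ± 0.24, adjusted p = 0.728) and Dhcr7 (0.37 ± 0.21, adjusted p = 0.728).

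The other control genes differed by less than the spread between libraries. Srebf1, for SREBP-1, ranged from 2.35 to 15.3 FPKM in vehicle villi and from 7.19 to 12.0 in vitamin D villi (0.21 ± 0.32, adjusted p = 0.865). It stood at -0.45 ± 0.28 in crypts (adjusted p = 0.484) and -0.10 ± 0.34 in colon (adjusted p = 0.967), and its lowest libraries, vitamin D crypts replicate 6 at 3.06 FPKM and vehicle colon replicate 5 at 2.04, lay far from the rest of their groups. Insig1, the INSIG gene that SREBP itself switches on, spread widely within groups. It ran from 29.6 to 129 FPKM in vehicle villi, from 19.9 to 94.5 in vehicle crypts and from 21.4 to 80.7 in vehicle colon. Its differences were -0.25 ± 0.30 in villi (adjusted p = 0.801), 0.02 ± 0.39 in crypts (adjusted p = 0.988) and -0.63 ± 0.39 in colon (adjusted p = 0.795). The interval for colon, -1.47 to 0.21, leaves room for a fall by more than 1 log2 unit. Scap, for the escort protein, had the lowest ratio of highest to lowest library of the 25 genes in villi, at 6.88 to 9.23 FPKM in vehicle villi and 7.16 to 8.92 in vitamin D villi (interval -0.20 to 0.19, adjusted p = 0.992).

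Among the 8 mevalonate and isoprenoid genes, 3 had positive and 5 negative differences in villi, 2 and 6 in crypts, and 1 and 7 in colon. Hmgcs1, which condenses the acetyl units into HMG-CoA, ranged from 12.1 to 48.7 FPKM in vehicle villi (median 17.6) and from 8.15 to 37.2 in vitamin D villi (median 21.8), a difference of 0.05 ± 0.34 (adjusted p = 0.973). In crypts it was -0.37 ± 0.29 (adjusted p = 0.581) and in colon -0.53 ± 0.45 (adjusted p = 0.869), where vehicle libraries alone ran from 9.93 to 48.5 FPKM. Mvd, the mevalonate diphosphate decarboxylase, ranged from 16.4 to 33.0 FPKM in vehicle colon and from 9.41 to 24.6 in vitamin D colon (-0.46 ± 0.23, adjusted p = 0.649). Ggps1, which makes geranylgeranyl diphosphate for protein prenylation rather than sterol, ranged from 3.37 to 5.30 FPKM in vehicle crypts and from 4.60 to 5.40 in vitamin D crypts (0.20 ± 0.10, adjusted p = 0.375). The groups overlapped in each of these comparisons.

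Among the 11 tested genes of the squalene and sterol steps, 7 had positive and 4 negative differences in villi, 4 and 7 in crypts, and 2 and 9 in colon. Sqle, squalene epoxidase and a rate-limiting enzyme of the sterol branch, ranged from 10.1 to 54.9 FPKM in vehicle villi and from 6.79 to 53.3 in vitamin D villi (0.07 ± 0.46, adjusted p = 0.969). In crypts the medians were 32.7 and 40.6 FPKM (0.33 ± 0.30, adjusted p = 0.641). In colon Sqle ranged from 40.1 to 65.9 FPKM with vehicle (median 58.6) and from 23.3 to 57.3 with vitamin D (median 43.7), a difference of -0.44 ± 0.20 (adjusted p = 0.577). Lss, which closes the sterol rings, ranged from 8.86 to 11.6 FPKM in vehicle colon and from 6.05 to 10.2 in vitamin D colon, with 5 of 7 treated libraries below all vehicle libraries (-0.36 ± 0.13, adjusted p = 0.353). Msmo1 (Sc4mol), a demethylating oxidase, had medians of 149 and 113 FPKM in colon (-0.47 ± 0.20, adjusted p = 0.532), 107 and 85.4 in crypts (-0.46 ± 0.27, adjusted p = 0.448) and 129 and 80.0 in villi (-0.49 ± 0.28, adjusted p = 0.556). It was thus lower on average in all 3 tissues without passing in any. Hsd17b7, which reduces a ketone on the sterol ring, stood at -0.32 ± 0.18 in colon (adjusted p = 0.751), Sc5d, a desaturase, at -0.33 ± 0.18 in crypts (adjusted p = 0.414), and Lbr, the nuclear envelope sterol reductase, at -0.18 ± 0.19 in villi (adjusted p = 0.767). Ebp, the sterol isomerase, stood at -0.10 ± 0.11 in villi (adjusted p = 0.760). Stard4, the cytosolic sterol carrier, ranged from 32.5 to 57.7 FPKM in vehicle crypts and from 32.0 to 45.8 in vitamin D crypts (-0.28 ± 0.14, adjusted p = 0.356). Beside these crypt values, 10 of the 11 enterocyte markers had negative differences in crypts (median -0.62, none passing by limma and 1 at an unadjusted p under 0.05). The highest crypt levels of Msmo1 (Sc4mol) and Sc5d were in vehicle replicates 5 and 6, where the enterocyte markers summed to 43401 and 52434 FPKM against at most 31150 in the other crypt libraries; their part in the crypt values was not tested.

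Described over all 25 genes, the median difference was 0.02 in villi, -0.02 in crypts and -0.17 in colon, beside a median over all genes tested of -0.01, -0.01 and 0.00. The differences were positive for 13 of 25 genes in villi, 10 in crypts and 4 in colon, against 47.2%, 47.6% and 50.0% of all genes tested. Over the alternatives run, the number of positive differences moved between 6 and 19 in villi and between 7 and 17 in crypts, whereas it stayed between 3 and 7 in colon. Of the 6 colon genes with an unadjusted p under 0.05, Insig2 and Dhcr7 had positive differences, and Lss, Srebf2, Sqle and Msmo1 (Sc4mol) negative ones. Vitamin D colon replicate 2 was the lowest of all 13 colon libraries for 16 of the 25 genes, and it was also the library with 4154 FPKM of stroma and muscle markers; without it and replicate 1 the colon median was -0.10 and 18 differences were negative. Without these 2 libraries the colon difference of Hmgcs1 was -0.17, of Sqle -0.24, of Lss -0.24, of Msmo1 (Sc4mol) -0.30, of Mvd -0.21, of Hsd17b7 -0.18, of Insig1 -0.31 and of Srebf1 -0.12, and none of these passed. All but that of Srebf1 were nearer 0 than with all 13 libraries. The part of that tissue mixture in the colon values was not tested beyond this comparison. The 8 enzyme genes not given value by value (Acat2, Mvk, Pmvk, Idi1, Fdps, Cyp51, Tm7sf2 and Nsdhl) had differences between -0.16 and 0.10 in villi, -0.14 and 0.02 in crypts and -0.23 and 0.07 in colon, with adjusted p-values from 0.710 upwards. The genes share libraries and move together, so these counts carry no test.

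**Figure D3:**
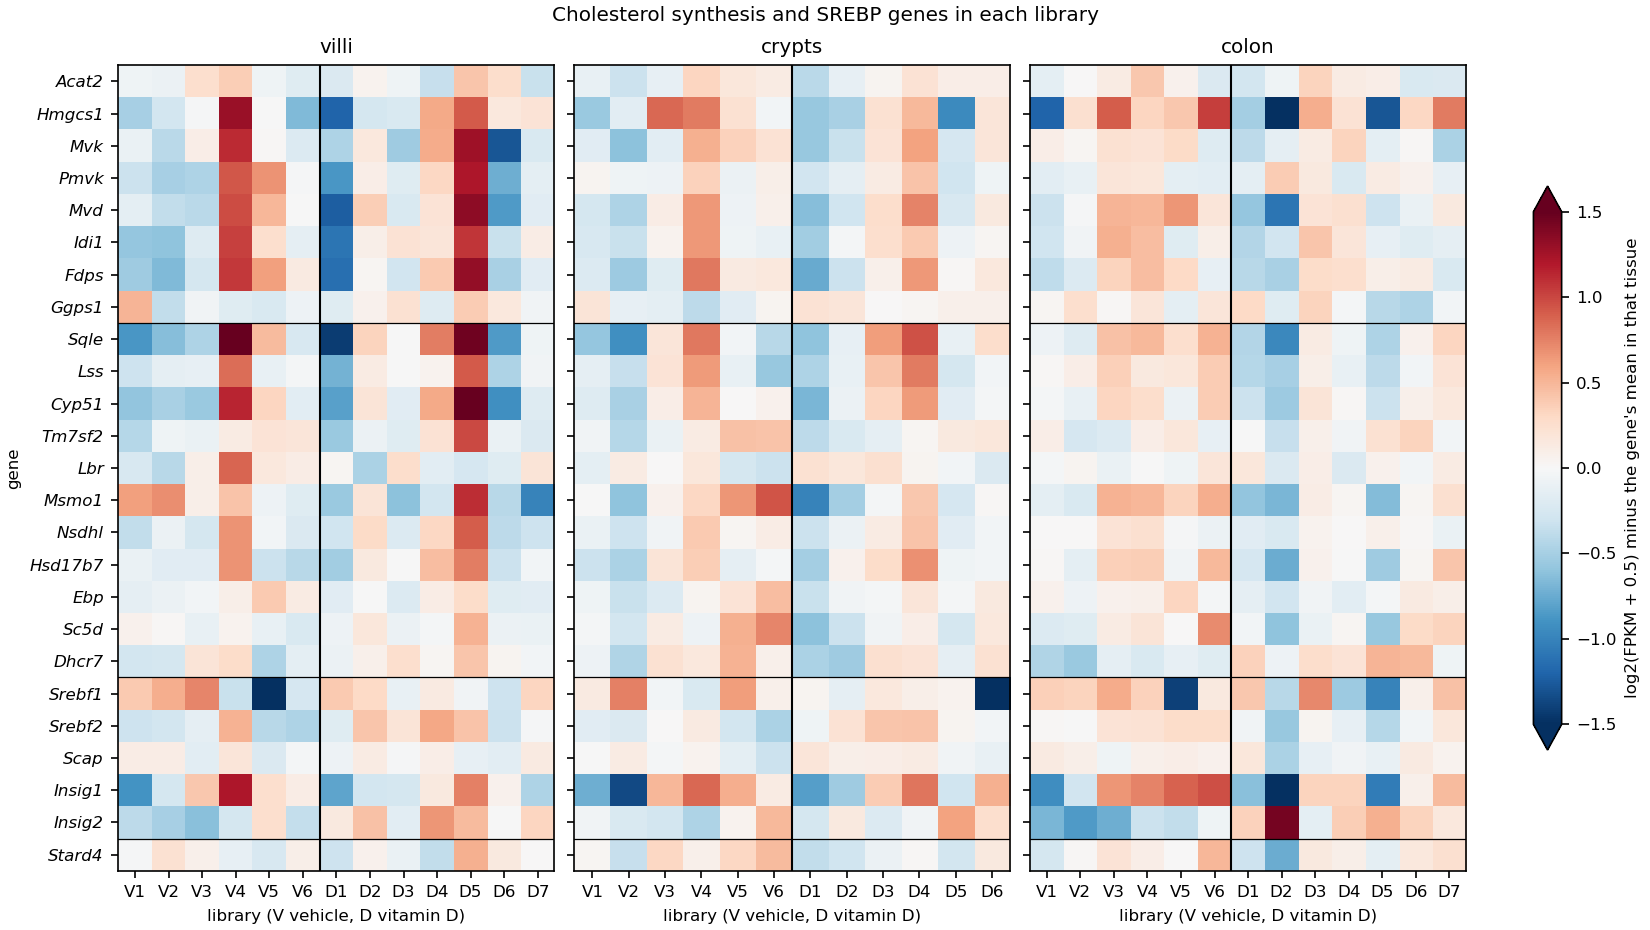
Each cell is the log2(FPKM + 0.5) of 1 gene (row) in 1 library (column) minus that gene's mean over the tissue, red above and blue below; V and D number the vehicle and vitamin D libraries. Most rows are red in vehicle villi 4 and vitamin D villi 5, and many are blue in vitamin D colon 2, where Insig2 is red.

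The villus libraries of a group differed from each other across most of these genes at once. The genes were high together in vehicle villi replicate 4, where the median gene stood 0.72 log2 units above its group mean and 22 of 25 were above it, and in vitamin D villi replicate 5, with a median of 0.86 and again 22 of 25. The other villus libraries had medians between -0.34 and 0.21. For 20 of 25 genes the highest villus library was one of these, and for 14 they were the 2 highest, among them Hmgcs1, Idi1, Fdps, Sqle, Cyp51 and Insig1. For example, Sqle stood at 54.9 FPKM in vehicle replicate 4 and 53.3 in vitamin D replicate 5, and at 6.79 to 32.8 in the other 11 villus libraries. The residual SD of these genes had a median of 0.43 log2 units in villi, beside 0.25 for all genes tested, and 11 of 25 were above the 90th percentile. In crypts it was 0.34 beside 0.24, with 3 of 25 above that percentile, and in colon 0.26 beside 0.27, also with 3. Vehicle villi replicate 4 also had the lowest summed enterocyte markers of the 13 villus libraries (38252 FPKM) and the highest summed Paneth cell markers (2878 FPKM), whereas vitamin D replicate 5 stood at 53395 and 344 FPKM, within the range of the others; the part of these values in the shared movement was not tested. Vehicle crypts replicate 4 and vitamin D crypts replicate 4 were likewise the highest crypt libraries by this measure (0.31 and 0.39). These 4 libraries all had more Ddx3y, a Y-linked gene, than Xist, which marks the inactive X chromosome. In crypts the pair with that male pattern were the only such libraries of 12. In villi the medians ran from -0.11 to 0.86 in the 6 libraries of male pattern and from -0.34 to 0.12 in the 7 of female pattern. In colon the median was above 0 in 6 of 6 libraries of male pattern (0.02 to 0.18) and in 2 of 7 of female pattern (-0.37 to 0.23). The part of this pattern in the shared movement was not tested.

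Levels were next set side by side across tissues, without a test, since the 3 tables may have been normalised separately. In vehicle libraries Msmo1 (Sc4mol) had the highest mean of the 26 genes everywhere, 131 ± 33.2 FPKM in villi (SD, n = 6), 117 ± 42.9 in crypts (n = 6) and 136 ± 30.7 in colon (n = 6), or 18.9%, 13.2% and 14.1% of the summed FPKM of the 26. Sc5d was second in villi at 90.5 ± 7.18 FPKM and Fdps, which makes farnesyl diphosphate, second in crypts at 75.8 ± 26.1 and in colon at 69.5 ± 16.4. In the last 2 cases the gap to the next gene was smaller than the SD. At the low end lay Ggps1 (3.03 to 5.91 FPKM over the 3 means), leaving aside Fdft1, whose listing near 0 is not ranked here. Next above Ggps1 came Lss in villi (3.49) and crypts (7.10). In colon Srebf1 (7.08) and Hsd17b7 (8.33) lay below Lss (10.2). Srebf2 exceeded Srebf1 in mean level in every tissue, at 22.5 against 9.61 FPKM in villi, 40.9 against 12.1 in crypts and 60.2 against 7.08 in colon. The INSIG genes stood the same way round, with Insig1 at 67.3, 58.4 and 57.8 FPKM and Insig2 at 14.7, 12.8 and 20.1 in villi, crypts and colon.

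The authors' deposited tables compare the tissues directly, among vitamin D treated libraries. Of the 26 genes they called 5 higher and 7 lower in crypts than in villi, 3 higher and 8 lower in colon than in villi, and 3 higher and 4 lower in colon than in crypts. Over all genes those tables called 31.6% and 30.4%, 37.8% and 27.0%, and 32.6% and 23.9% in the same order. These values had the same direction as mean FPKM for 80.5%, 73.2% and 95.6% of the better expressed genes, again in that order. Ebp, for example, was called lower in colon than in villi (-0.43 ± 0.10), with mean FPKM of 58.4 in colon and 48.8 in villi. For some genes the direction and size between tissues therefore depend on the normalisation. Lbr was 2.64 ± 0.14 log2 units higher in crypts than in villi and 1.56 ± 0.13 higher in colon than in villi, with colon at -0.95 ± 0.10 against crypts. Sc5d went the other way, at -1.38 ± 0.15 in crypts and -1.67 ± 0.16 in colon against villi, as did the carrier gene Stard4 at -0.77 ± 0.15 and -0.87 ± 0.17. By the authors' tables, Dhcr7 was higher in colon by 0.93 ± 0.12 against villi and by 1.20 ± 0.16 against crypts, and Insig2 by 1.42 ± 0.24 against crypts while against villi its value was 0.17 ± 0.22 (adjusted p = 0.528). Insig2 was lower in crypts than in villi (-1.13 ± 0.18). Since these libraries were all treated, the colon levels of Dhcr7 and Insig2 include the difference from vehicle given above. Scap was higher in crypts (0.64 ± 0.08) and colon (0.67 ± 0.10) than in villi. Srebf1 and Insig1 were lower in colon than in villi, at -1.29 ± 0.26 and -1.21 ± 0.32. Fdft1, listed near 0 in all tissues, had -2.74 ± 1.15 in colon against villi. Tm7sf2, whose enzyme does the same reaction as that of Lbr, was called lower in crypts than in villi at -0.74 ± 0.23, whereas Lbr was higher. That holds for treated libraries only. With vehicle the mean of Tm7sf2 was 14.5 FPKM in both villi and crypts. The treated villi included replicate 5, far highest for Tm7sf2 at 29.4 FPKM (next 16.9).

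**Figure D4:**
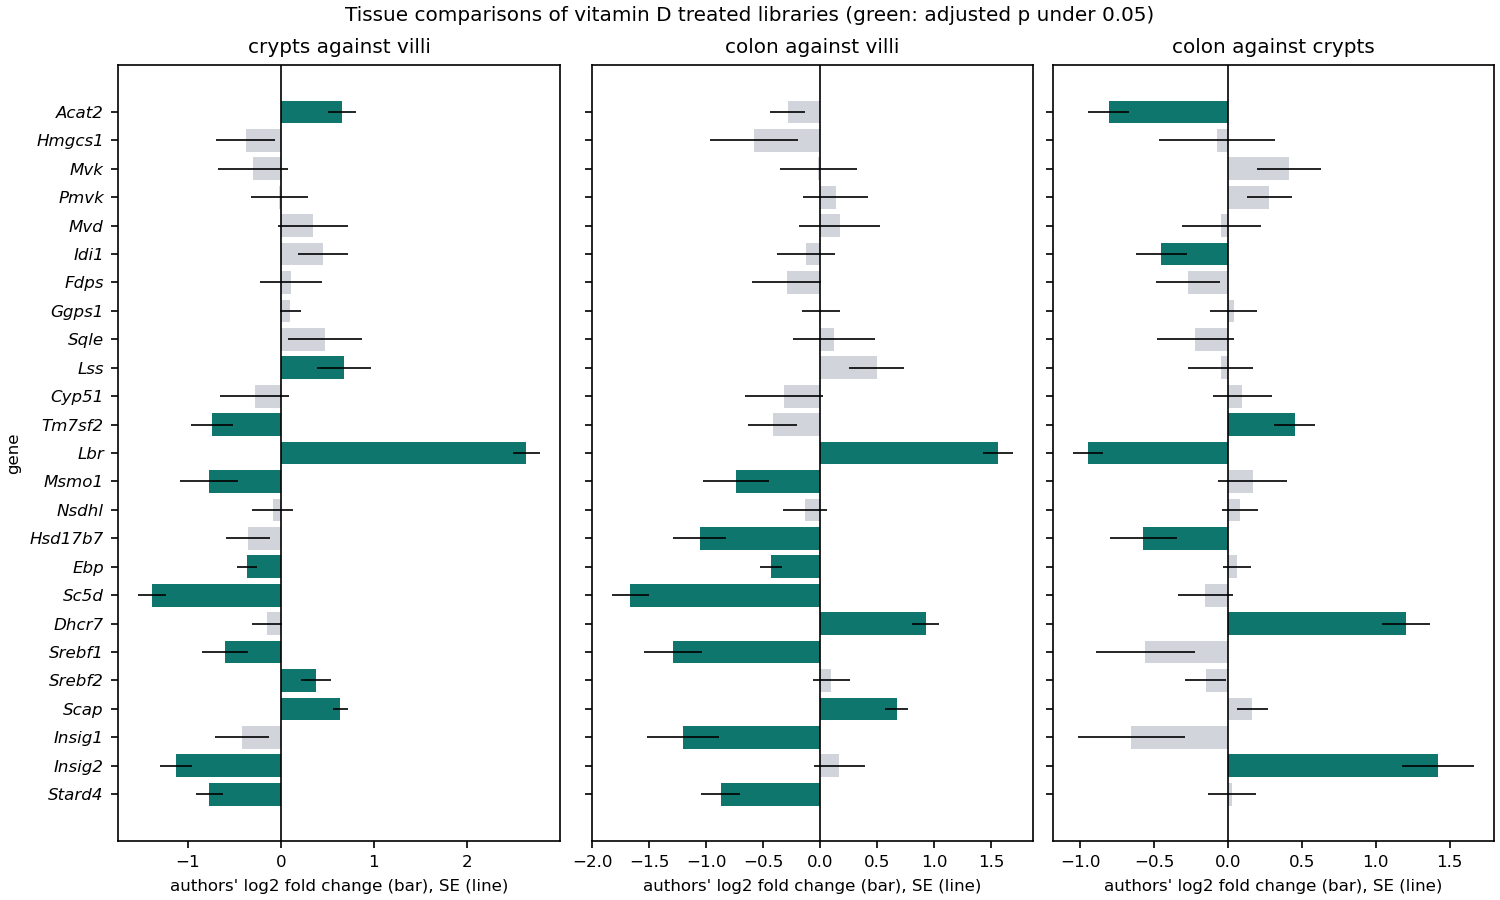
The authors' deposited log2 fold changes between vitamin D treated tissues for the 25 genes, with their standard errors; green bars passed the authors' adjusted p of 0.05 and grey bars did not. Lbr stands out as higher in crypts and colon than in villi, Sc5d and Stard4 as lower, and Dhcr7 and Insig2 as higher in colon than in crypts.

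Genes around the pathway were examined in lists of their own. Of the 14 tested genes of sterol uptake, storage and export in villi, 2 passed, both higher, and of 14 in crypts 1 passed, higher. Of the 13 in colon 0 passed by limma, with 2 at an unadjusted p under 0.05. Soat1, which esterifies cholesterol for storage, rose from 3.56 ± 0.98 to 10.8 ± 3.44 FPKM in villi (1.46 ± 0.20, adjusted p = 0.00081, 7 of 7 libraries above vehicle). It rose from 11.1 ± 1.46 to 37.8 ± 12.7 FPKM in crypts (1.66 ± 0.20, adjusted p = 0.000706, 6 of 6 libraries). Groups parted upwards without overlap in 1.75% of all genes tested in villi and 1.23% in crypts. In colon it stood at 13.5 ± 2.74 and 18.1 ± 4.72 FPKM (0.39 ± 0.17, adjusted p = 0.543). The response minus that in colon was 1.07 in villi (interval 0.51 to 1.63, adjusted p = 0.0712) and 1.27 in crypts (interval 0.70 to 1.84, adjusted p = 0.0668), neither of which passed over all genes. Npc1l1, the apical transporter that takes up dietary cholesterol, rose in villi from 365 ± 64.2 to 532 ± 39.5 FPKM (0.56 ± 0.11, adjusted p = 0.0120, 7 of 7), a call lost in the libraries whose table columns carry a plain name, taken alone (0.49, adjusted p = 0.141). In crypts Npc1l1 had means of 181 and 188 FPKM (0.11 ± 0.25, adjusted p = 0.855), and in colon of 7.16 and 3.04 FPKM (-0.32 ± 0.75, adjusted p = 0.949). Vehicle colon replicate 5 had 3489 FPKM of summed enterocyte markers, beside a median of 718 in vehicle colon. The part of that library in the colon values was not tested. Without both muscle-rich libraries the colon differences were 0.48 for Soat1 (adjusted p = 0.526) and -0.19 for Npc1l1, and neither passed.

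**Figure D5:**
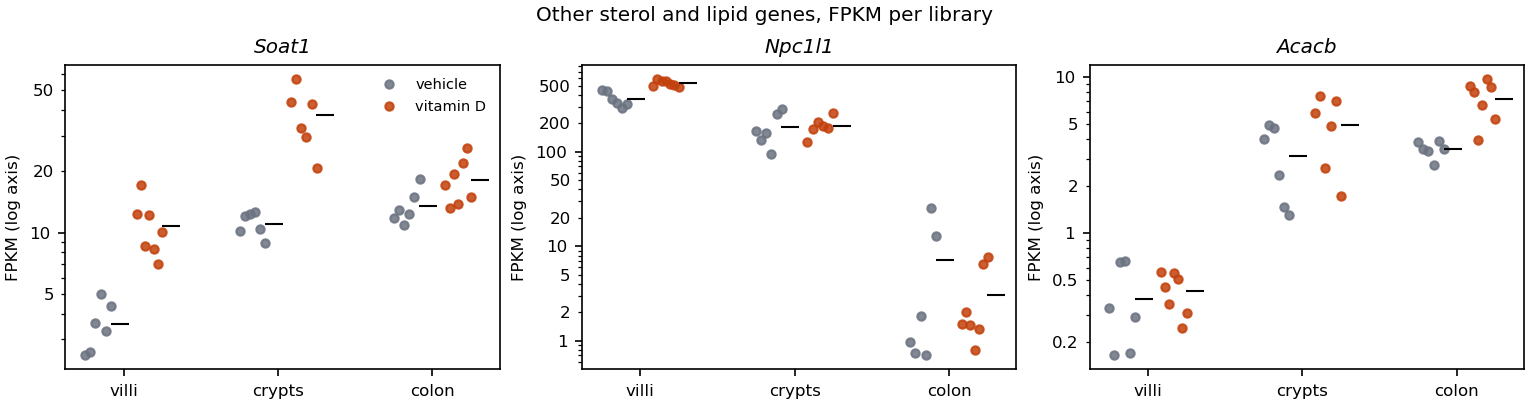
FPKM on a log axis in every library for Soat1, Npc1l1 and Acacb, grey for vehicle and orange for vitamin D, with black marks at group means. Soat1 is parted without overlap in villi and crypts and overlaps in colon, and Npc1l1 is parted in villi.

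Of the fatty acid synthesis genes that SREBP-1 drives, 0 of 10 passed by limma in villi (1 at an unadjusted p under 0.05), 0 of 12 in crypts (3) and 1 of 14 in colon. That gene was Acacb, the acetyl-CoA carboxylase of mitochondria, which ranged from 2.73 to 3.87 FPKM in vehicle colon and from 3.97 to 9.72 in vitamin D colon (0.93 ± 0.18, adjusted p = 0.0203, 7 of 7). Such a separation upwards was found in 0.754% of all genes tested in colon. The call for Acacb was lost without both muscle-rich libraries (0.84, adjusted p = 0.126), without vitamin D replicate 1 (0.89, adjusted p = 0.0547), without vehicle replicate 2 (adjusted p = 0.0573), 3 (adjusted p = 0.0563) or 4 (adjusted p = 0.0623), in the plain-named libraries alone (adjusted p = 0.181) and with a replicate block by the numbers of the column names (0.86, adjusted p = 0.0573). The smallest p of this list was that of Elovl5, a fatty acid elongase, in villi (-0.43 ± 0.13, adjusted p = 0.147) and of Mid1ip1, an activator of acetyl-CoA carboxylase, in crypts (0.57 ± 0.15, adjusted p = 0.0954). The authors' deposited tables called 1 gene of this list higher and 1 lower in crypts, and none in villi. None of the 8 genes of SREBP processing and sterol-sensing degradation passed by limma in a tissue, with 1, 2 and 0 at an unadjusted p under 0.05 in villi, crypts and colon; the authors' deposited tables called 1 of them, in villi. The nearest by limma was Mbtps1, which makes the earlier of the cuts that free SREBP, in villi, at 18.1 ± 1.29 and 22.2 ± 2.06 FPKM (0.28 ± 0.08, adjusted p = 0.0814), with 6 of 7 treated libraries above all vehicle libraries. Erlin1, of the complex that degrades sterol-sensing proteins, was nearest in crypts (-0.40 ± 0.14, adjusted p = 0.182) and colon (-0.30 ± 0.19, adjusted p = 0.795). Of the 9 tested genes of isoprenoid use none passed by limma in a tissue, with 1, 2 and 3 at an unadjusted p under 0.05. In crypts 1 of them was called in the authors' deposited table. The smallest p belonged to Pdss1, which builds the side chain of coenzyme Q, in villi (-0.26 ± 0.11, adjusted p = 0.331) and colon (-0.35 ± 0.12, adjusted p = 0.329), and to Coq2, which attaches that chain, in crypts (0.24 ± 0.07, adjusted p = 0.133), where 6 of 6 treated libraries lay above all vehicle libraries, a separation found upwards in 1.23% of all genes tested in crypts. Pdss1 had its crypt values the other way round, with 6 of 6 treated libraries below all vehicle libraries (-0.27 ± 0.09, adjusted p = 0.159), a separation found downwards in 0.522% of all genes tested there.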

How the data were processed

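RNA-seq was made from villi, crypts and colon of vehicle and vitamin D treated mice, grouped by the sample titles. Per the file headers, the authors deposited FPKM per gene for each tissue. For their comparisons the authors deposited a mean level over libraries (a signal), the log2 fold change with its standard error, the test score, the p-value and its adjusted form. The submitters' processing notes name kallisto 0.45.0, DESeq 1.28.1, DESeq2 and the build mm9, without saying which of them made which column. Each FPKM table was taken to have its own normalisation. The deposited fold changes between tissues and those of mean FPKM had a median offset of -0.08 (colon against crypts), -0.67 (colon against villi) and -0.48 (crypts against villi) log2 units. That offset sets the authors' fold changes beside those of FPKM, so it cannot by itself show separate normalisation of the tables.

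Tests covered genes that reached an FPKM of 1 in 6 or more libraries of a tissue and were run on log2(FPKM + 0.5) with limma 3.58.1 in R 4.3.3 (lmFit, eBayes with trend), vitamin D against vehicle, without covariate, with Benjamini-Hochberg adjustment over all genes tested and a threshold of 0.05. Differences of response between tissues were contrasts of contrasts over all 38 libraries. The main fit took libraries of different tissues as independent. Whether they came from the same mice was not established, so these standard errors, intervals and p-values rest on that assumption. The procedure was tested on simulated data. No count model was run. Depth was recovered from low values, of which 78.9% to 91.6% per library lay within 0.05 of a whole number of reads.

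The members and the gene lists were chosen with earlier results of these data known. Named are Hmgcs1, Sqle, Srebf1, Srebf2, Insig1, Insig2, Dhcr7, up to 4 more members per tissue by smallest p, and from each further list up to 3 called genes per tissue or, with none called, the gene of smallest p; Tm7sf2, Scap, Fdps and the tissue values of other members were chosen after their values were seen. Vehicle and vitamin D libraries share replicate numbers in their titles. Deviations of same-numbered libraries from their group means correlated across genes at over 0.1 in 6 of 6 pairs in villi (0.102 to 0.465). The same held for 6 of 6 pairs in crypts (0.119 to 0.545) and 3 of 6 in colon. On that ground the block was taken as a pairing in villi and crypts. A vehicle library correlated best with the vitamin D library of its own number in 3 of 6 cases in villi, 3 of 6 in crypts and 1 of 6 in colon. The pairing is thus uncertain in villi and crypts too. The column names number some villus and colon libraries differently from the titles, so which of those libraries belong together is uncertain. By column names, 6 of 6 villus pairs (0.102 to 0.465) and 4 of 6 colon pairs (0.0593 to 0.648) correlated at over 0.1. Alternatives were other pseudocounts, no filter, eBayes without trend, median-of-ratios rescaling, the replicate block, the style of the column names (plain, hyphenated or number-prefixed) as a covariate or plain-named libraries alone (4 per group), the Xist and Ddx3y pattern as a covariate, and leaving out each library. By that pattern 24 libraries were female and 14 male, though the labels call the animals pooled. Leaving out both muscle-rich colon libraries and the block by column names were added after seeing the data. The list of further sterol synthesis genes is not reported here. Promoters came from RefSeq (GRCm38.p6).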

Additional observations from a re-analysis of the deposited data

Results flagged for a closer look

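Within groups of libraries, 26 values among 174 sets checked lay far from the rest of their group by Dixon's criterion at 95%. The sets also covered some genes around the pathway. About 1 set in 20 would meet the criterion if values were independent and normally spread. FPKM were taken without logs and these genes move together, so the count cannot be judged against that rate. No difference of response between tissues was added to these values.

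In vehicle villi, replicate 4 was the far highest library for Hmgcs1 (48.7 FPKM, next 19.4), Mvk (15.5), Sqle (54.9), Lss (6.25), Lbr (7.57), Nsdhl (29.4), Hsd17b7 (12.8) and Srebf2 (35.9). In vitamin D villi, replicate 5 was the far highest for Pmvk (27.4 FPKM), Mvd (24.4), Idi1 (64.8), Fdps (110.4, next 57.5), Lss (6.67), Cyp51 (78.3), Tm7sf2 (29.4), Sc4mol (Msmo1, 229.7) and Sc5d (134.8). The enzymes of the pathway were thus high together in these 2 libraries, of which 1 was treated and 1 was not.

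Ggps1 was far highest in vehicle villi replicate 1 (4.66 FPKM) and Insig2 in vehicle villi replicate 5 (21.6 FPKM), the library that made its villus groups overlap. In vehicle crypts, replicate 4 was far highest for Pmvk (22.5 FPKM) and Idi1 (101 FPKM). Srebf1 was far lowest in vitamin D crypts replicate 6 (3.06 FPKM) and in vehicle colon replicate 5 (2.04 FPKM), the latter also the far highest library for Ebp (75.9 FPKM). Sc5d was far highest in vehicle colon replicate 6 (85.2 FPKM). Insig2 was far highest in vitamin D colon replicate 2 (77.5 FPKM, next 41.2), the library with the most stroma and muscle marker RNA.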

How the results depend on the processing

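Of 1683 values recomputed under alternatives, 1612 were counted as unchanged. Among these, single differences kept their direction and their side of the threshold, and counts stayed equal or within 1.5 times. The medians over the genes were all counted as unchanged, although those of villi and crypts changed sign under some alternatives. They ran from -0.14 to 0.12 in villi, from -0.13 to 0.08 in crypts and from -0.22 to -0.10 in colon. The count of genes called higher in villi, 0, became 1 (Insig2) with the replicate block by title numbers and by column names, with name style in the model and with the Xist and Ddx3y pattern as a covariate, and was 0 to 1 without 1 library. In crypts it became 1 (Srebf2) with the replicate block. In colon it became 1 (Dhcr7) with rescaling and 1 with the replicate block, and was 0 to 2 without 1 library; the count of genes called lower became 2 with the block, Sqle (-0.53, adjusted p = 0.0291 by limma) and Msmo1, listed as Sc4mol (-0.55, adjusted p = 0.0334). By title numbers the colon libraries were not taken as pairs: 1 of 6 vehicle libraries correlated best with its own number, against 3 of 6 in villi and 3 of 6 in crypts. Vehicle colon 6 correlated best with vitamin D colon 7 (0.648), and these share a number in the column names. With the block by column names the count of genes called lower in colon was 1, Msmo1 or Sc4mol (-0.40, adjusted p = 0.0295), Sqle missed (-0.40, adjusted p = 0.143), and the call for Acacb was lost (0.86, adjusted p = 0.0573). The count of genes whose response differed between villi and colon was 0 to 1 without 1 library (Srebf2, without vehicle villi replicate 4). The blocks changed no other call among the genes named here.

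In the plain-named libraries alone the villus differences of Hmgcs1 (-0.41), Srebf1 (-0.16) and Sc5d (-0.0086) and the colon difference of Npc1l1 (0.33) changed sign, as did Srebf1 in colon once the name style (0.055) or the block by column names (0.055) entered the model; none of these passed. Without 1 library the villus differences ran from -0.10 to 0.31 for Hmgcs1, -0.17 to 0.38 for Sqle and -0.12 to 0.37 for Srebf1, the crypt differences from -0.25 to 0.19 for Insig1 and -0.053 to 0.26 for Npc1l1, and the colon differences from -0.40 to 0.055 for Srebf1 and -0.63 to 0.26 for Npc1l1. Within the plain-named libraries, Insig2 stood at 0.72 in villi (adjusted p = 0.133) and 1.15 in colon (adjusted p = 0.190), and Dhcr7 at 0.52 in colon (adjusted p = 0.161). For Insig2 and Dhcr7 the side of the threshold in limma therefore depends on the setting, while their sign did not change in villi or colon. Fdft1 lies under the filter and gave no test. The causes of these shifts were not tested.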
